A study of Mus musculus with 18 samples.

Results

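Enzymes that conjugate, oxidize or hydrolyze foreign and endogenous compounds, together with the peroxidases that use glutathione or thioredoxin, were followed in brown preadipocytes exposed to FGF6. They were the protein-coding mouse genes whose symbols mark them as glutathione transferases (Gst, Mgst), flavin-containing monooxygenases (Fmo), UDP-glucuronosyltransferases (Ugt1 and Ugt2), epoxide hydrolases (Ephx), carboxylesterases (Ces), sulfotransferases (Sult), glutathione peroxidases (Gpx) and peroxiredoxins (Prdx). The rule used names alone and found 110 genes of the 48023 in the count table. The cells were an immortalized line of murine brown preadipocytes, the precursors of the fat cells that burn fuel for heat. They received vehicle (Veh) or the growth factor FGF6 at 200 ng/ml for 4, 8 or 24 h, with 3 RNA-seq libraries in each of 6 groups. All 18 libraries therefore came from 1 cell line, and the sources used here do not state whether the libraries of a group were separate cultures. The p-values set each difference against the spread between libraries, estimated over all 6 groups, and that spread may be technical.

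These families act in sequence. Monooxygenases and epoxide hydrolases add or expose a reactive group, and transferases then attach glutathione, glucuronic acid or sulfate, which makes the product soluble and ready for export. Glutathione is a small thiol that also feeds the glutathione peroxidases, which reduce hydrogen peroxide and lipid peroxides, while the peroxiredoxins draw mainly on thioredoxin. Most of the families are best known from liver, and many of their members occur as gene clusters of close copies.

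Most families were expressed only in part. In the deposited counts, 44 of the 110 members passed the filter on low counts and were tested, against 15071 of all genes. The 66 members that were not tested never exceeded 16 counts in a library, and 35 of them had no count in any library. Most of the untested genes belonged to families typical of liver, with 3 of 19 Ugt members, 4 of 19 Ces members and 3 of 21 Sult members tested. By contrast, 14 of 22 Gst members, all 3 Mgst members, 5 of 8 Gpx members and 6 of 7 Prdx members were tested. Fmo had 4 of 7 members tested, and Ephx had 2 of 4. A member could pass the filter through the group in which it was high, so counts over tested members are a description, and 29 of the 44 had at least 10 counts in every library. Hepatocyte markers were near 0 in every library, with Ttr and Serpina1a at 0. Of the 5 macrophage and leukocyte markers, Ptprc and Adgre1 never exceeded 2 counts, while Cd68 and Csf1r passed the filter and were tested.

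Library totals ran from 24327816 to 33471980 counts, so 3 counts correspond to between 0.0905 and 0.126 counts per 1000000 library counts (CPM). In 1 vehicle library at 24 h, replicate 3, the ribosomal gene CT010467.1 took 1.03% of the counts, against at most 0.0169% in the other 17. Without that library, 9 members were higher and 27 lower at 24 h, against 9 and 28 with it.

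With FGF6 at 24 h, the RNA of 28 tested members fell and that of 9 rose at a false discovery rate (FDR) under 0.05 by the edgeR quasi-likelihood test. The background was high, because 37.9% of all tested genes were lower and 35.9% were higher in that comparison. With a further limit of a 2-fold change, 22 of the 44 members were lower, against 15.3% of all genes, and 4 were higher, against 7.44%. The members' median log2 fold change was -1.11, and that of all tested genes was -0.02. Among the 29 members with at least 10 counts in every library, 12 were at least 2-fold lower (11.5% of all genes under that filter) and 3 at least 2-fold higher (5.67%), while 18 fell (39.7%) and 8 rose (40.1%).

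The earlier times gave smaller differences. At 4 h, 21 members were lower and 8 higher, where 34.2% of all genes were lower and 28.6% higher, and the members' median log2 fold change was -0.31 against -0.05 for all genes. Of these, 6 were at least 2-fold lower (6.38% of all genes) and 2 at least 2-fold higher (4.96%). Scaling by library totals alone gave 27 lower and 7 higher members at 4 h, and it changed the split of all genes from 4308 higher and 5152 lower to 3242 higher and 6495 lower, with a median of -0.15. At 8 h, 25 members were lower (38.4% of all genes) and 10 higher (32.4%), with 17 at least 2-fold lower (10.9%) and 4 at least 2-fold higher (7.39%). With at least 10 counts in every library, 1 of 29 members was at least 2-fold lower at 4 h (3.87% of all genes) and 9 at 8 h (7.35%). The median at 8 h was -0.77 for the members and -0.05 for all genes. In bulk RNA, fewer cells of a type and less RNA per cell cannot be told apart.

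**Figure D1:**
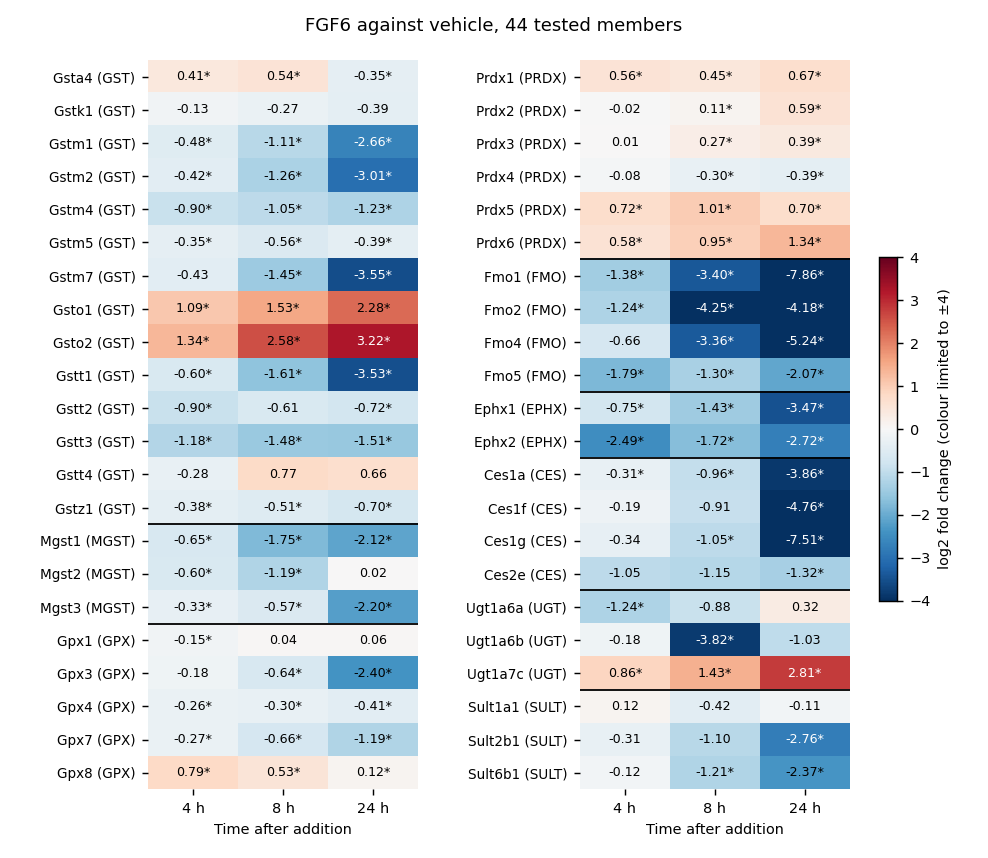
Log2 fold change of FGF6 against vehicle for the 44 tested members at 4, 8 and 24 h, grouped by family, with 3 libraries in each group. Red is higher and blue lower with FGF6, an asterisk marks an FDR under 0.05, and Gsto1, Gsto2, Ugt1a7c and the peroxiredoxins except Prdx4 are the main red rows at 24 h.

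Fitted fold changes of Fmo1, Fmo2, Fmo4, Ces1f, Ces1g and Ugt1a6b against a group with 3 or fewer counts depend on the prior count, so count ratios are given for them. Most called members were called in 1 direction. At all 3 times 17 members were lower and 7 were higher (Gsto1, Gsto2, Ugt1a7c, Gpx8, Prdx1, Prdx5 and Prdx6), where 23% of all genes were lower and 20.4% higher at all 3 times. Gsta4 was the 1 member called in both directions, and Gstk1, Gstt4 and Sult1a1 were called at no time. The shares of all genes called in both directions or at no time were not computed, so these counts are a description. At 24 h the log2 fold changes were -0.39 for Gstk1, a transferase of mitochondria and peroxisomes, 0.66 for Gstt4 and -0.11 for Sult1a1, the phenol sulfotransferase.

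Gsto1, an omega-class transferase that removes glutathione from proteins and reduces dehydroascorbate, became the leading transferase transcript. With vehicle it was at 157, 160.1 and 165 CPM at 4 h, 154, 144 and 136 CPM at 8 h and 122, 111 and 117 CPM at 24 h. Gsto1 with FGF6 was at 341, 348 and 339 CPM at 4 h, 428, 420.2 and 411 CPM at 8 h and 561, 571 and 568 CPM at 24 h. Every FGF6 library lay above every vehicle library at each time. The rise grew from a log2 fold change of 1.09 ± 0.04 (SE) at 4 h to 1.53 ± 0.04 at 8 h and 2.28 ± 0.04 at 24 h (edgeR adjusted p = 9.38e-25), the last a 4.86-fold difference in mean CPM. The vehicle level itself fell between 4 and 24 h, by a log2 change of -0.46 ± 0.04.

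Gsto2, its neighbour and the second omega-class gene, rose from a far lower level. The genes lie side by side on the plus strand, Gsto1 at chr19:47854970-47864790 and Gsto2 at chr19:47865534-47886324 (GRCm38, GENCODE M21 positions). Vehicle libraries held 1.17, 1.51 and 1.17 CPM at 4 h, 0.884, 0.731 and 1.10 CPM at 8 h and 1.82, 1.60 and 1.98 CPM at 24 h for Gsto2. FGF6 libraries held 3.88, 2.80 and 3.17 CPM at 4 h, 5.76, 5.21 and 5.26 CPM at 8 h and 15.7, 17.3 and 16.96 CPM at 24 h. The groups did not overlap at any time. Log2 fold changes of Gsto2 were 1.34 ± 0.16, 2.58 ± 0.16 and 3.22 ± 0.13 (edgeR adjusted p = 1.8e-17), the highest of any tested member at each time.

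The mu-class transferases, which conjugate electrophiles such as epoxides and quinones, moved the other way. All 5 tested genes of the chromosome 3 cluster (Gstm1, Gstm2, Gstm4, Gstm5 and Gstm7) fell at 8 and 24 h, by very different amounts. At those times 38.4% and 37.9% of all tested genes were lower. The remaining members Gstm3 and Gstm6 were not tested. Gstm1, at chr3:108012255-108017973 on the minus strand, stood in vehicle at 145, 155 and 159 CPM at 4 h, 129, 139.7 and 140.3 CPM at 8 h and 177, 183 and 194 CPM at 24 h. Gstm1 with FGF6 was at 115, 107 and 107 CPM at 4 h, 60.7, 63.8 and 64.9 CPM at 8 h and 28.5, 30.6 and 28.5 CPM at 24 h. The groups were apart at every time, and the vehicle libraries at 24 h were the highest of all. Its log2 fold change went from -0.48 ± 0.04 through -1.11 ± 0.05 to -2.66 ± 0.05 (edgeR adjusted p = 2.2e-24), a 6.32-fold lower mean. Of the 50-base windows along the Gstm1 exons, 18.9% occur in another annotated gene as well, so part of its count is uncertain.

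Gstm2, the next gene in the cluster, had 54.2, 57.8 and 60.3 CPM at 4 h, 63.3, 64.3 and 63.8 CPM at 8 h and 81.6, 91.6 and 98.2 CPM at 24 h with vehicle. The FGF6 libraries gave 44.4, 40.7 and 43.9 CPM at 4 h, 25.98, 26.99 and 27.1 CPM at 8 h and 10.7, 11.5 and 11.4 CPM at 24 h. They lay below vehicle throughout, and while vehicle rose over time FGF6 libraries moved down. On the log2 scale the changes were -0.42 ± 0.06, -1.26 ± 0.06 and -3.01 ± 0.06 (edgeR adjusted p = 4.47e-23).

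Gstm7 and Gstm4 are expressed at lower levels. Gstm7 was at 3.21, 2.04 and 3.50 CPM at 4 h, 3.79, 3.34 and 2.33 CPM at 8 h and 5.53, 6.51 and 7.78 CPM at 24 h with vehicle. Gstm7 with FGF6 was at 2.26, 2.04 and 2.19 CPM at 4 h, 1.43, 0.975 and 1.03 CPM at 8 h and 0.401, 0.536 and 0.734 CPM at 24 h. The Gstm7 groups overlapped at 4 h, where the difference did not pass the test (-0.43 ± 0.21, edgeR adjusted p = 0.0849), and were apart later, with -1.45 ± 0.24 at 8 h and -3.55 ± 0.25 at 24 h. Gstm4 was at 5.55, 5.53 and 5.51 CPM at 4 h, 6.63, 6.01 and 5.31 CPM at 8 h and 9.74, 9.32 and 11.1 CPM at 24 h with vehicle. Gstm4 with FGF6 was at 3.22, 2.77 and 2.88 CPM at 4 h, 2.67, 2.99 and 3.04 CPM at 8 h and 3.47, 4.64 and 4.70 CPM at 24 h. Its fall changed less with time, at -0.90 ± 0.13, -1.05 ± 0.13 and -1.23 ± 0.12, and the difference between the 24 and 4 h effects did not pass the test (-0.32 ± 0.18, edgeR adjusted p = 0.127). Gstm5, at the plus-strand end of the cluster, fell by smaller amounts (log2 fold changes of -0.35, -0.56 and -0.39). It overlaps a transcript on the opposite strand, and the strand setting of the counting is not stated, so its reads cannot be separated from that transcript.

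**Figure D2:**
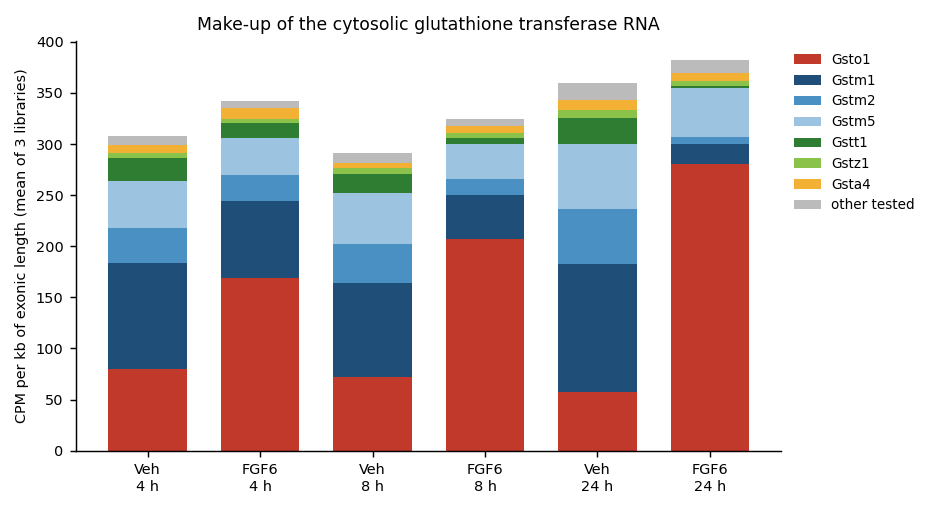
Summed expression of the 14 tested Gst members in each group, as mean CPM per kb of exonic length over 3 libraries, split by gene. Over all 22 Gst members the sum with FGF6 at 24 h, 382, compares with 359.7 with vehicle, while Gsto1, the red block, makes up 73.3% of it against 16.1%.

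Gsto1 took a larger share of the summed transferase level with FGF6. Per kb of exonic length, the 22 Gst members, 14 of them tested, summed to 308 ± 12.5, 292 ± 2.93 and 359.7 ± 16.1 CPM per kb (SD, n = 3) with vehicle at 4, 8 and 24 h. With FGF6 the sums were 342 ± 2.95, 325 ± 1.19 and 382 ± 3.30 CPM per kb, and the vehicle and FGF6 libraries did not overlap at any time. Gsto1 made up 25.8% ± 0.465, 24.6% ± 1.62 and 16.1% ± 1.28 of that sum with vehicle at 4, 8 and 24 h. With FGF6 its share was 49.6% ± 0.661, 63.8% ± 1.11 and 73.3% ± 0.152. Gstm1 went the other way at 24 h, from 34.8% ± 0.316 of the sum to 5.19% ± 0.198. With the 3 membrane-bound transferases added, the sums went the other way, from 447 ± 2.63 with vehicle to 406 ± 4.02 CPM per kb with FGF6 at 8 h and from 608 ± 26.2 to 441 ± 7.36 CPM per kb at 24 h, without overlap. At 4 h they overlapped, at 463 ± 17.2 and 454 ± 9.67 CPM per kb, and at 24 h the share of Gsto1 in this wider sum was 9.50% with vehicle and 63.5% with FGF6. These sums and shares rest on annotated exon lengths and were not tested.

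Theta-class genes form another cluster, on chromosome 10, and theta transferases act on small halogenated compounds. Gstt1 was the most abundant, with 30.6, 36.2 and 34.7 CPM at 4 h, 26.8, 28.4 and 26.3 CPM at 8 h and 36.3, 41.9 and 39.6 CPM at 24 h in vehicle. Gstt1 with FGF6 was at 22.7, 21.3 and 22.95 CPM at 4 h, 9.05, 8.40 and 9.37 CPM at 8 h and 4.09, 2.79 and 3.34 CPM at 24 h. No FGF6 library reached the lowest vehicle library of its time. Log2 fold changes of Gstt1 were -0.60 ± 0.07, -1.61 ± 0.08 and -3.53 ± 0.10 (edgeR adjusted p = 5.71e-21).

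Gstt3, the adjacent gene, had 6.94, 6.86 and 5.61 CPM at 4 h, 10.6, 10.4 and 10.4 CPM at 8 h and 14.3, 14.5 and 14.6 CPM at 24 h in vehicle. With FGF6, Gstt3 was at 2.96, 3.09 and 2.48 CPM at 4 h, 4.20, 2.39 and 4.77 CPM at 8 h and 4.01, 6.04 and 5.10 CPM at 24 h. It was already lower at 4 h and its fall then held a similar size, with -1.18 ± 0.17, -1.48 ± 0.15 and -1.51 ± 0.14. Its exons overlap those of another annotated gene on the same strand, so its count is uncertain. Gstt2 was lower at 4 h (-0.90) and 24 h (-0.72), with -0.61 at 8 h (edgeR adjusted p = 0.0644). The Gstt2 call at 4 h was lost without vehicle replicate 3 of that time (-0.57, edgeR adjusted p = 0.165) and without FGF6 replicate 1 or 2 (edgeR adjusted p = 0.0973 and 0.105). The call at 24 h was lost without vehicle replicate 3 of 24 h (-0.51, edgeR adjusted p = 0.127) and without FGF6 replicate 1 or 3 (edgeR adjusted p = 0.0984 and 0.0871).

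Gstz1, which isomerizes maleylacetoacetate in tyrosine breakdown, changed by -0.38, -0.51 and -0.70 on the log2 scale. Gsta4, an alpha-class enzyme that conjugates the lipid peroxidation product 4-hydroxynonenal, was higher at 4 h (0.41) and 8 h (0.54) and lower at 24 h (-0.35). The change of its effect between 4 and 24 h passed the test (-0.76 ± 0.15, edgeR adjusted p = 8.6e-05).

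The pi-class genes Gstp1, Gstp2 and Gstp3, prominent in many cultured cells, were not tested. Gstp1 had at most 1 count in a library. Of the 50-base windows along its exons, 33.7% occur in another annotated gene as well, and the others occur in Gstp1 alone. Reads mapping to several places could affect the shared windows, and how such reads were counted is not stated. The shared windows were 54.3% for Gstp2, 0% for Gstp3 and 90.5% for Gsta1. Gstp2 and Gstp3 had no count in any library. The part of such reads in these low counts was not tested.

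Among the membrane-bound transferases, Mgst1, which conjugates glutathione and reduces lipid peroxides at the endoplasmic reticulum, was lower with FGF6 at every time. It was at 136, 131 and 146 CPM at 4 h, 124, 122 and 124 CPM at 8 h and 126, 131 and 133 CPM at 24 h with vehicle. Mgst1 with FGF6 was at 90.04, 88.9 and 83.8 CPM at 4 h, 39.2, 33.5 and 37.3 CPM at 8 h and 29.6, 29.1 and 31.3 CPM at 24 h. The groups did not overlap, and most of the fall was present by 8 h. Log2 fold changes were -0.65 ± 0.05, -1.75 ± 0.05 and -2.12 ± 0.05 (edgeR adjusted p = 3.14e-22), while vehicle gave -0.08 from 4 to 24 h (edgeR adjusted p = 0.103).

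Mgst3 had a different course. Vehicle libraries gave 88.9, 89.8 and 93.7 CPM at 4 h, 101, 100.2 and 98.4 CPM at 8 h and 187, 195 and 205 CPM at 24 h. With FGF6 the values were 80.2, 65.7 and 70.9 CPM at 4 h, 70.02, 63.9 and 68.5 CPM at 8 h and 37.5, 46.8 and 43.7 CPM at 24 h. Vehicle rose from 8 to 24 h and FGF6 libraries moved down, so the gap was widest at 24 h. Fold changes (log2) were -0.33 ± 0.06, -0.57 ± 0.06 and -2.20 ± 0.06, and the vehicle change from 4 to 24 h was 1.11 ± 0.06.

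Mgst2, which can make leukotriene C4, returned to the vehicle level. In vehicle it was at 15.2, 14.6 and 14.5 CPM at 4 h, 12.1, 12.6 and 12.8 CPM at 8 h and 18.3, 20.4 and 19.6 CPM at 24 h. Mgst2 with FGF6 was at 10.1, 9.31 and 9.79 CPM at 4 h, 6.06, 5.61 and 4.64 CPM at 8 h and 20.5, 18.1 and 20.6 CPM at 24 h. The FGF6 libraries were below vehicle at 4 and 8 h, and the groups overlapped at 24 h. Differences on the log2 scale were -0.60 ± 0.08, -1.19 ± 0.09 and 0.02 ± 0.07, the last not passing the test (edgeR adjusted p = 0.776). Its effect differed between 24 and 8 h by 1.21 ± 0.11 (edgeR adjusted p = 2.08e-09).

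**Figure D3:**
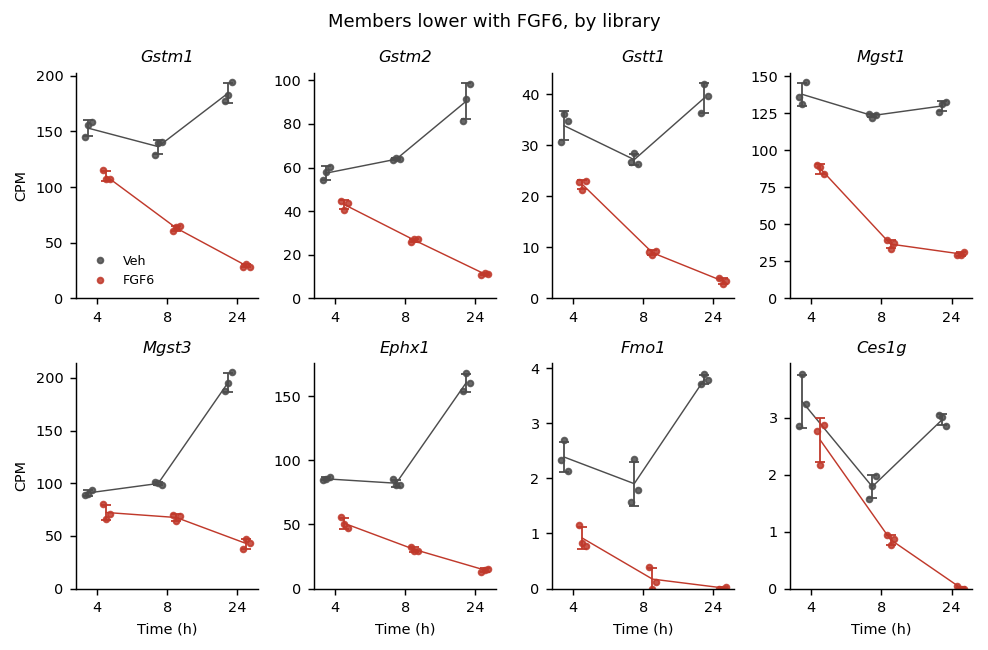
Expression in CPM by library for 8 members that were lower with FGF6 at 24 h, at 4, 8 and 24 h. Points are libraries, bars are the mean ± SD of 3 libraries, grey is vehicle and red is FGF6, and in Gstm1, Gstm2, Mgst3 and Ephx1 the vehicle libraries rise to 24 h while the FGF6 libraries decline.

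Microsomal epoxide hydrolase, Ephx1, opens reactive epoxides to diols. Its vehicle libraries held 84.5, 85.1 and 86.9 CPM at 4 h, 85.03, 80.4 and 80.8 CPM at 8 h and 154, 168 and 160.1 CPM at 24 h. FGF6 libraries held 55.5, 49.98 and 47.01 CPM at 4 h, 32.3, 29.5 and 29.5 CPM at 8 h and 13.02, 14.8 and 15.6 CPM at 24 h. The groups were separate at each time, and the vehicle level rose late, by 0.91 ± 0.05 from 4 to 24 h. On the log2 scale the changes were -0.75 ± 0.05, -1.43 ± 0.06 and -3.47 ± 0.06 (edgeR adjusted p = 1.11e-24), an 11.1-fold lower mean. Ephx2, the soluble enzyme that acts on fatty acid epoxides, was low, with means of 0.999 CPM in vehicle and 0.145 CPM in FGF6 libraries at 24 h, and it changed by -2.49, -1.72 and -2.72 on the log2 scale. Its fall at 8 h did not pass the test without FGF6 replicate 1 of that time (-1.20, edgeR adjusted p = 0.0578) and was -3.24 without FGF6 replicate 2, and its value at 4 h was -3.14 without FGF6 replicate 3 of 4 h.

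The flavin-containing monooxygenases, which oxygenate nitrogen and sulfur atoms, were low throughout, and all 4 tested members were at least 2-fold lower at 8 and 24 h. Of all tested genes, 10.9% and 15.3% were at least 2-fold lower at those times. No FGF6 library of 24 h held more than 4 counts of Fmo1, Fmo2 or Fmo4. These members passed the filter on low counts through other groups, which favours a lower result, so the count over members is a description. Fmo1, Fmo2 and Fmo4 are neighbours on chromosome 1, and Fmo5 lies on chromosome 3. Fmo1, the most abundant of them, was at 2.33, 2.69 and 2.14 CPM at 4 h, 1.58, 2.35 and 1.78 CPM at 8 h and 3.71, 3.89 and 3.78 CPM at 24 h with vehicle. Fmo1 with FGF6 was at 1.15, 0.829 and 0.772 CPM at 4 h, 0.391, 0 and 0.123 CPM at 8 h and 0, 0 and 0.0367 CPM at 24 h. The groups were apart at all times and the gene was near 0 at 24 h, where the 3 vehicle libraries together held 325 counts and the 3 FGF6 libraries 1 count. The ratio at equal depth was 314, with an exact 95% counting interval of 56.0 to 12449. At 4 h the log2 fold change was -1.38 ± 0.28, and at 8 h -3.40 ± 0.40. Without 1 FGF6 library of 8 h, the Fmo1 value at 8 h ran from -4.99 (replicate 1 left out) to -2.79 (replicate 2 left out).

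Fmo5 was at 0.746, 0.680 and 0.734 CPM at 4 h, 0.789, 1.05 and 0.890 CPM at 8 h and 1.72, 1.99 and 1.64 CPM at 24 h with vehicle. Fmo5 with FGF6 was at 0.259, 0.191 and 0.163 CPM at 4 h, 0.260, 0.471 and 0.370 CPM at 8 h and 0.365, 0.536 and 0.367 CPM at 24 h. It was lower from 4 h on, with -1.79 ± 0.34, -1.30 ± 0.29 and -2.07 ± 0.26 and groups that did not overlap. Fmo2 had 69 counts with vehicle and 3 with FGF6 at 8 h, a ratio of 21.1 (6.93 to 105), and was already lower at 4 h (-1.24). Fmo4 had 53 counts against 1 at 24 h, a ratio of 51.2 (8.81 to 2062), and 26 against 2 at 8 h, a ratio of 11.9 (2.99 to 104).

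The carboxylesterases hydrolyze ester drugs and lipid esters, and 3 of the 4 tested members belong to the Ces1 cluster on chromosome 8. Ces1a was at 42.5, 46.7 and 48.4 CPM at 4 h, 28.7, 34.6 and 34.2 CPM at 8 h and 39.2, 36.6 and 38.8 CPM at 24 h with vehicle. Ces1a with FGF6 was at 37.01, 36.8 and 37.4 CPM at 4 h, 16.5, 16.5 and 17.01 CPM at 8 h and 2.52, 2.46 and 2.90 CPM at 24 h. The groups never overlapped, and the change from 8 to 24 h was the larger step. Log2 fold changes were -0.31 ± 0.06, -0.96 ± 0.07 and -3.86 ± 0.09 (edgeR adjusted p = 2.71e-22). Of the 50-base windows of Ces1a, 13.7% occur in another annotated gene, so part of its count is uncertain.

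Ces1g had the same late loss at a lower level. Vehicle libraries had 2.85, 3.77 and 3.24 CPM at 4 h, 1.58, 1.81 and 1.99 CPM at 8 h and 3.05, 3.02 and 2.86 CPM at 24 h. FGF6 libraries had 2.77, 2.17 and 2.88 CPM at 4 h, 0.944, 0.773 and 0.863 CPM at 8 h and 0.0365, 0 and 0 CPM at 24 h. The groups overlapped at 4 h (-0.34 ± 0.17, edgeR adjusted p = 0.0748) and were apart at 8 h (-1.05 ± 0.21). At 24 h the group totals were 255 counts with vehicle and 1 with FGF6, a ratio of 247 (43.9 to 9776). Ces1f had 66 counts against 2 at 24 h, a ratio of 31.9 (8.49 to 269), and values of -0.19 and -0.91 (log2) at the earlier times did not pass the test. Ces2e fell at 24 h (-1.32, edgeR adjusted p = 0.0325), a call that was lost in 5 of the 6 fits that left out 1 library of that time, all but that without vehicle replicate 2, with edgeR adjusted p-values up to 0.106.

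Few conjugating enzymes of the glucuronide and sulfate families were present. Ugt1a7c, a glucuronosyltransferase, was the 1 member of these families that rose. It was at 0.551, 0.309 and 0.734 CPM at 4 h, 0.758, 0.540 and 0.171 CPM at 8 h and 0.455, 0.513 and 0.505 CPM at 24 h with vehicle. Ugt1a7c with FGF6 was at 0.629, 1.08 and 1.18 CPM at 4 h, 1.33, 1.48 and 1.19 CPM at 8 h and 4.30, 3.21 and 2.90 CPM at 24 h. The libraries overlapped at 4 h and were apart at 8 and 24 h. Fold changes (log2) were 0.86 ± 0.36, 1.43 ± 0.34 and 2.81 ± 0.31 (edgeR adjusted p = 1.05e-08). At 4 h the call (edgeR adjusted p = 0.0395) was lost without vehicle replicate 1 or 2 (edgeR adjusted p = 0.0634 and 0.192) and without FGF6 replicate 2 or 3 (edgeR adjusted p = 0.113 and 0.121).

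The Ugt1a genes are alternative first exons joined to shared downstream exons. In the annotation Ugt1a7c shares exonic sequence with 8 other Ugt1a genes on the same strand, and 53.7% of its 50-base windows occur in another gene, so its count is uncertain. Ugt1a6b had 36 counts with vehicle and 2 with FGF6 at 8 h, a ratio of 16.5 (4.26 to 142), and its log2 fold change at 24 h was -1.03 (edgeR adjusted p = 0.253). Ugt1a6a was lower at 4 h alone (-1.24, edgeR adjusted p = 0.0465). That call was lost in 14 of the 18 fits that left out 1 library, with a log2 fold change of -0.62 without FGF6 replicate 2 of 4 h and -2.55 without FGF6 replicate 1, where it held.

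Sult6b1 was the most abundant sulfotransferase on average. It was at 1.43, 1.85 and 1.94 CPM at 4 h, 1.93, 1.75 and 1.75 CPM at 8 h and 1.51, 1.51 and 1.56 CPM at 24 h with vehicle. Sult6b1 with FGF6 was at 1.41, 1.75 and 1.63 CPM at 4 h, 0.814, 0.639 and 0.904 CPM at 8 h and 0.401, 0.0714 and 0.404 CPM at 24 h. The groups overlapped at 4 h and separated afterwards, with log2 fold changes of -0.12 ± 0.22, -1.21 ± 0.25 and -2.37 ± 0.32. It overlaps a gene on the opposite strand, as does Sult2b1, the cholesterol sulfotransferase, which was lower at 24 h (-2.76, edgeR adjusted p = 7.45e-05, and -3.42 without FGF6 replicate 1 of 24 h).

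Of the 5 tested glutathione peroxidases, 3 were lower (37.9% of all genes) and 1 was higher (35.9%) at 24 h, with a median log2 fold change of -0.41. Gpx1, the main cytosolic selenium enzyme, was at 174, 168 and 175 CPM at 4 h, 184, 178 and 172 CPM at 8 h and 278, 272 and 256 CPM at 24 h with vehicle. Gpx1 with FGF6 was at 162, 152 and 151 CPM at 4 h, 183, 186 and 179 CPM at 8 h and 267, 288 and 287 CPM at 24 h. The libraries overlapped at 8 and 24 h, and the largest difference was a small fall at 4 h (-0.15 ± 0.04), against 0.04 ± 0.04 at 8 h and 0.06 ± 0.04 at 24 h. Vehicle itself rose by 0.64 ± 0.04 from 4 to 24 h. At 24 h the difference passed the test in 7 of the 18 fits that left out 1 library, with log2 fold changes up to 0.14.

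Gpx3, the secreted plasma enzyme, was lower at 24 h than at 4 h in the libraries of both arms. Vehicle values were 11.9, 14.7 and 14.5 CPM at 4 h, 10.95, 11.4 and 11.4 CPM at 8 h and 3.29, 4.55 and 4.04 CPM at 24 h. FGF6 values were 10.6, 13.5 and 12.03 CPM at 4 h, 7.23, 7.46 and 6.94 CPM at 8 h and 1.06, 0.429 and 0.771 CPM at 24 h. At 4 h the groups overlapped, and at 8 and 24 h the FGF6 libraries were lower. Differences on the log2 scale were -0.18 ± 0.11, -0.64 ± 0.12 and -2.40 ± 0.21, beside a vehicle change of -1.78 ± 0.13 from 4 to 24 h.

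Gpx7, a peroxidase of the endoplasmic reticulum that uses a cysteine in place of selenium, was at 19.7, 19.6 and 20.7 CPM at 4 h, 26.1, 27.8 and 23.5 CPM at 8 h and 33.4, 34.1 and 34.5 CPM at 24 h with vehicle. Gpx7 with FGF6 was at 15.9, 16.7 and 17.1 CPM at 4 h, 18.002, 15.02 and 16.1 CPM at 8 h and 14.01, 14.97 and 15.6 CPM at 24 h. It was lower at each time without overlap, at -0.27 ± 0.07, -0.66 ± 0.07 and -1.19 ± 0.07, while the vehicle libraries rose. Gpx8, its close relative in the same compartment, was higher at 4 h (58.6 ± 4.57 with vehicle and 102 ± 5.64 CPM with FGF6, mean ± SD of 3 libraries). Its log2 fold changes then shrank from 0.79 to 0.53 and 0.12, as vehicle rose and the FGF6 means stayed between 102 and 109 CPM. The last of these calls was lost without FGF6 replicate 2 (0.09, edgeR adjusted p = 0.112). Gpx4, which reduces lipid peroxides in membranes, changed by -0.26, -0.30 and -0.41, and 34.7% of its windows occur in another annotated gene.

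By 24 h, 5 of the 6 tested peroxiredoxins had risen, where 35.9% of all tested genes were higher. Prdx1, the abundant cytosolic enzyme, was at 229.6, 234 and 245 CPM at 4 h, 246, 252 and 256 CPM at 8 h and 269, 267 and 284 CPM at 24 h with vehicle. Prdx1 with FGF6 was at 346, 346 and 351 CPM at 4 h, 332, 352 and 346 CPM at 8 h and 442, 438 and 425 CPM at 24 h. All FGF6 libraries were higher than all vehicle libraries of their time. The log2 fold changes of 0.56 ± 0.03, 0.45 ± 0.03 and 0.67 ± 0.03 were modest, with an edgeR adjusted p of 1.86e-15 at 24 h.

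Prdx5, found in mitochondria, peroxisomes and cytosol, was at 216, 214 and 225 CPM at 4 h, 202, 192 and 185 CPM at 8 h and 193, 197 and 193 CPM at 24 h with vehicle. Prdx5 with FGF6 was at 361, 368 and 349 CPM at 4 h, 385, 389 and 394 CPM at 8 h and 319, 316 and 309.7 CPM at 24 h. Its rise was highest at 8 h, with 0.72 ± 0.03, 1.01 ± 0.03 and 0.70 ± 0.03, and the groups did not overlap. Prdx5 overlaps Trmt112 on the opposite strand, so part of its count may belong to that gene.

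Prdx6, which uses glutathione and also has phospholipase activity, was at 68.9, 71.2 and 76.3 CPM at 4 h, 63.3, 63.7 and 60.5 CPM at 8 h and 70.7, 71.05 and 67.4 CPM at 24 h with vehicle. Prdx6 with FGF6 was at 103, 117 and 103 CPM at 4 h, 118, 123 and 119 CPM at 8 h and 178, 178 and 173 CPM at 24 h. Vehicle was at like levels at 4 and 24 h (-0.05, edgeR adjusted p = 0.368) and the FGF6 libraries were higher at 24 h than before. On the log2 scale the effect was 0.58 ± 0.04, 0.95 ± 0.04 and 1.34 ± 0.04 (edgeR adjusted p = 2.69e-19).

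Prdx3, the mitochondrial peroxiredoxin, had log2 fold changes of 0.01, 0.27 and 0.39, and Prdx2, a second cytosolic enzyme, had -0.02, 0.11 and 0.59. Both passed the test at 8 and 24 h. With library totals alone as the scale, Prdx2 no longer passed at 8 h (0.04, edgeR adjusted p = 0.215), and both were called lower at 4 h, Prdx3 with -0.090. Prdx2 overlaps Junb and Rnaseh2a on the opposite strand. Prdx4, the enzyme of the endoplasmic reticulum, was the 1 peroxiredoxin that fell (-0.30 at 8 h and -0.39 at 24 h). At 4 h its value was -0.08 (edgeR adjusted p = 0.0548). Summed per kb, the peroxiredoxins went from 470.0 ± 4.93 to 619 ± 4.54 CPM per kb at 24 h (SD, n = 3).

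**Figure D4:**
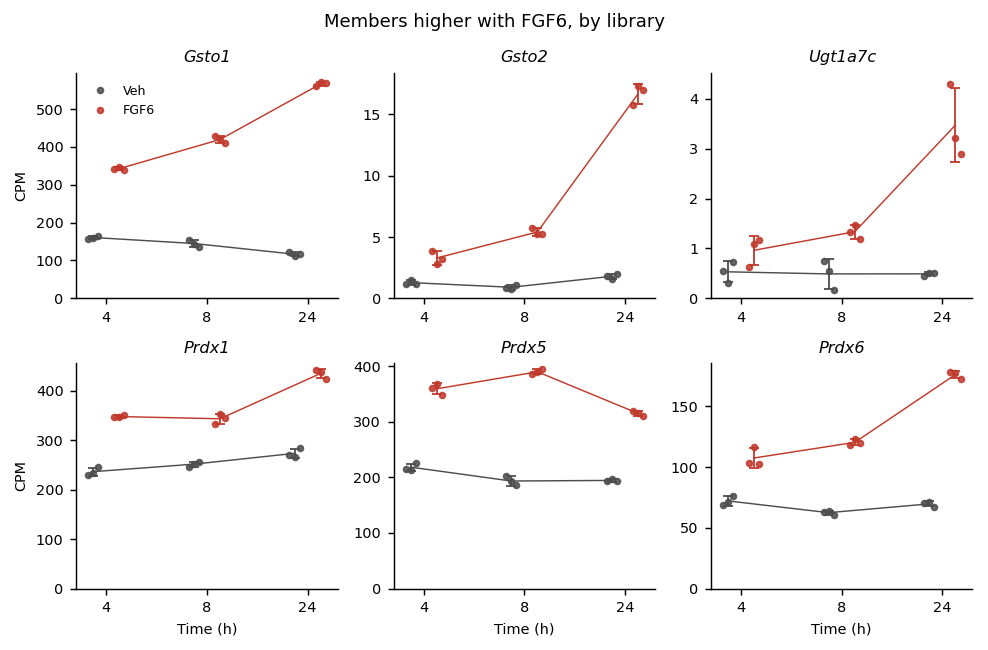
Expression in CPM by library for 6 members that were higher with FGF6 at 24 h, at 4, 8 and 24 h. Points are libraries and bars are the mean ± SD of 3 libraries, with vehicle in grey and FGF6 in red, and the FGF6 points lie above the vehicle points in every panel at 8 and 24 h.

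Between genes, levels can be compared only per length. The length used joins all annotated exons of a gene over all its transcripts, and it can exceed that of the transcript expressed. The order below, and the sums per kb above, therefore depend on the annotation. With vehicle at 24 h, the highest members on the scale of CPM per kb of exonic length were Gpx1 (187), Mgst3 (179), Prdx4 (145) and Gstm1 (125). With FGF6 at 24 h, they were Gsto1 (280.0), Gpx1 (195), Prdx5 (147) and Prdx1 (143).

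Effects at different times were compared by the test of their difference. Between 24 and 4 h the FGF6 effect differed for 31 of the 44 members (53.5% of all genes), in 22 toward lower values (25.2% of all genes) and in 9 toward higher values (28.3%). Between 8 and 4 h it differed for 26 members (30.6%), 19 toward lower values (15.1% of all genes), and between 24 and 8 h for 25 (45.1%), 17 toward lower values (22.5%). These 3 differences share libraries. Vehicle-treated cells also moved with time. From 4 to 24 h, 34 members changed with vehicle (60.8% of all genes), 28 of them upward (30.9%), and from 8 to 24 h 32 changed (49.2%), 30 of them upward (25.5%). From 4 to 8 h 22 changed (43%), 8 of them upward (21.2%) and the others downward (21.7%). The vehicle libraries used for these values also enter the FGF6 effects.

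Promoter sequence was searched for 3 motifs known from detoxification genes. RefSeq promoter windows (GRCm38.p6), 1 for each start, were matched for 37 of the 44 tested members, which have 49 windows, and 250 bases before each start were searched on both strands. The antioxidant response element core, TGACNNNGC, occurred in 4 of the 49 windows (8.16%), those of Gstm5, Gstm7, Mgst1 and Prdx1, and 10.2% of all 32851 windows hold it. The AP-1 motif, TGANTCA, which can overlap the element, occurred in 5 (10.2%), of Gstm5, Mgst2, Prdx1, Sult2b1 and Ugt1a6a, against 6.75% of all windows. The core of the xenobiotic response element, GCGTG, occurred in 12 windows of 9 members (24.5%), against 28.2% of all windows. Members with a match to the response element core moved both ways at 24 h, Prdx1 up and Gstm5, Gstm7 and Mgst1 down.

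The promoters of Prdx1, which rose and holds both motifs, of Mgst2, which fell and returned, and of Gsto1 and Ephx1, a strongly rising and a strongly falling member, are shown 5′ to 3′ on the gene's own strand, without bases of annotated exons. Capitals mark matches to the antioxidant response element core or the AP-1 motif, in Prdx1 as a lone AP-1 match and, nearer the start, an overlapping pair of both. Gsto1 and Ephx1 hold no match in these windows. The windows of Mgst2 and Ephx1 lie inside the GENCODE limits of those genes, upstream of a RefSeq start, in sequence that no transcript uses as an exon.
Prdx1 (chr4:116685349-116685543, plus strand): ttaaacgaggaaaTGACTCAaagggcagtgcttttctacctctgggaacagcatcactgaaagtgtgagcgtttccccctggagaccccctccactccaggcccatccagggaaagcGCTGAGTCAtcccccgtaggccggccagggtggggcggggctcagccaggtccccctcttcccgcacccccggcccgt
Mgst2 (chr3:51660929-51661177, plus strand): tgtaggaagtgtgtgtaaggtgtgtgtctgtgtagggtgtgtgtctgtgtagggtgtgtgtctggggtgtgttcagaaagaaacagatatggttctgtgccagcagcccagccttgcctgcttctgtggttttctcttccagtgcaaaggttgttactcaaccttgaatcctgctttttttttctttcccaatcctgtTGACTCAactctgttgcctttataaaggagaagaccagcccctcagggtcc
Gsto1 (chr19:47854723-47854969, plus strand): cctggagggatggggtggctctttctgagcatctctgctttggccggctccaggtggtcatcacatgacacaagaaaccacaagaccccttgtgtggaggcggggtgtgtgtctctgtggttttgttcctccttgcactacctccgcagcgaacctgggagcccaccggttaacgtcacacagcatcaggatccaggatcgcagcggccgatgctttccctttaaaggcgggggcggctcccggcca
Ephx1 (chr1:181017570-181017819, minus strand): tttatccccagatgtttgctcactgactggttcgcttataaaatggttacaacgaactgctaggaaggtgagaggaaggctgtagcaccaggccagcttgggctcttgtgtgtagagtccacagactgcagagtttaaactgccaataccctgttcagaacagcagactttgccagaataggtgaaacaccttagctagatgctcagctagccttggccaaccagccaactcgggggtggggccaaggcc
The first base shown is 250 bases before the RefSeq start. The lone AP-1 match in Prdx1 begins 237 bases and the overlapping pair 133 bases before the start, and the Mgst2 match 52 bases before it.

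Genes that work beside these enzymes were read from 8 lists. Of all tested genes, 28.6%, 32.4% and 35.9% were higher and 34.2%, 38.4% and 37.9% lower at 4, 8 and 24 h. A list count near these shares does not set that list apart from all genes, and the lists were not tested as sets. Changes are given as log2 fold changes. The glutathione supply and recycling list had 18 tested genes, of which 8 were higher and 5 lower at 4 h, 10 and 5 at 8 h, and 12 and 3 at 24 h. At 24 h Slc7a11, the cystine importer, went from 4.10 to 15.03 CPM (log2 fold change 1.88 ± 0.11), and Ggct, which cleaves gamma-glutamyl amino acids, from 3.37 to 45.04 CPM (3.73 ± 0.09). Glrx, a glutaredoxin, rose by 1.08, and Esd, which hydrolyzes S-formylglutathione, by 1.17. The genes that passed in the other direction at 24 h were Ggt5, Ggt7 and Oplah. Ggt5 went from 10.95 to 0.0364 CPM, Ggt7 changed by -1.35, and Oplah, which opens 5-oxoproline, changed by -1.68. Gclc and Gclm, the subunits of the enzyme that starts glutathione synthesis, were higher at 24 h by 0.90 and 0.68, and Gsr, which recycles oxidized glutathione, by 0.94. At 4 h Gclm was lower (-0.20).

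In the thioredoxin system, 5 of 9 tested genes were higher and 3 lower at each time. Srxn1, sulfiredoxin, which repairs overoxidized peroxiredoxins, went from 106 to 810.3 CPM at 24 h, with log2 fold changes of 1.19 ± 0.03, 1.38 ± 0.04 and 2.93 ± 0.04. Txnip, the inhibitor of thioredoxin, changed by -3.17 at 24 h, and the sestrins Sesn1 and Sesn2 by -1.77 and -1.14. Of the superoxide dismutases and catalase, all 4 tested genes were lower at 4 h and 2 at 8 h. At 24 h Sod2, Sod3 and Cat were lower and Sod1 was higher (0.18).

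**Figure D5:**
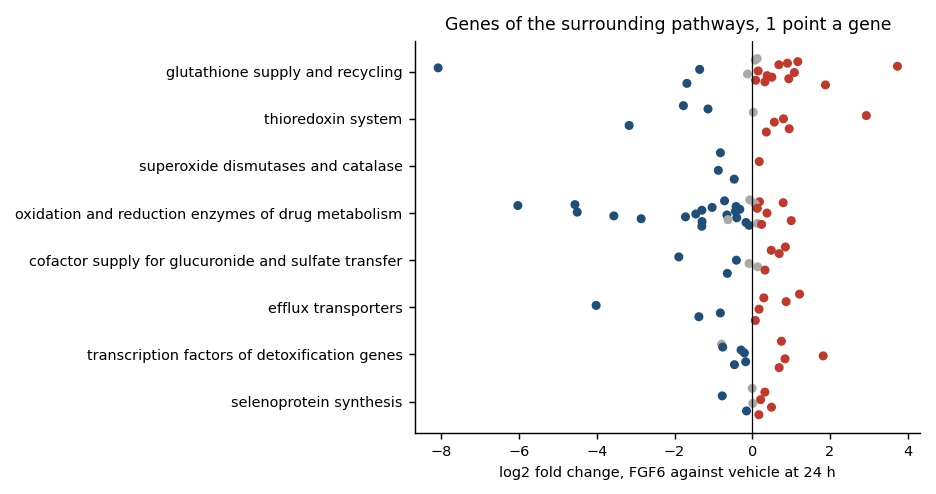
Log2 fold change of FGF6 against vehicle at 24 h for the tested genes of 8 surrounding lists, 1 point a gene, with 3 libraries in each group. Red and blue points are higher and lower at an FDR under 0.05 and grey points did not pass. The oxidation and reduction enzymes lie mostly on the lower side, with 19 lower (37.9% of all genes) and 6 higher (35.9%) of 29.

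Oxidation and reduction enzymes of drug metabolism had 29 tested genes, with 3 higher and 15 lower at 4 h, 6 and 15 at 8 h, and 6 and 19 at 24 h. Cyp1b1, a cytochrome P450 that oxidizes steroids and aromatic hydrocarbons, went from 615 to 52.1 CPM at 24 h (-3.56 ± 0.04), and Cbr2, a carbonyl reductase, from 184 to 8.15 CPM (-4.50 ± 0.05). The aldehyde dehydrogenases Aldh1a7, Aldh1a1 and Aldh3a1 changed by -6.03, -4.56 and -1.03. The molybdenum enzymes Xdh and Aox1 changed by -1.30 and -1.30, the electron donor Cyb5a by -1.45, and the cytochromes Cyp2d22 and Cyp4f13 by -1.72 and -1.29. Cyp2u1 was the 1 tested gene of that list at least 2-fold higher (1.00), and Nqo1, a quinone reductase, had 0.14, which did not pass the test.

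Cofactor supply for glucuronide and sulfate transfer had 4 higher and 3 lower of 9 tested genes at 4 h, 3 and 4 at 8 h, and 4 and 3 at 24 h. Papss2, which makes the sulfate donor, changed by -1.89 at 24 h, and its paralog Papss1 rose by 0.69. Of 8 efflux transporters, 3 were higher and 3 lower at 4 h, 4 and 4 at 8 h, and 5 and 3 at 24 h. Abcc3, an exporter of glucuronides, went from 10.2 to 0.632 CPM, Abcg2 changed by -1.37 and Abcb1a rose by 1.21. Among 10 transcription factors of detoxification genes, 6 were higher and 3 lower at 4 h, 5 and 5 at 8 h, and 4 and 5 at 24 h. Nfe2l2, which encodes NRF2, rose by 0.54, 0.57 and 0.69, Ahr, the aryl hydrocarbon receptor, by 2.37, 2.55 and 0.75, and Maff, a small partner protein of NRF2, by 1.82 at 24 h. Genes of selenoprotein synthesis gave 3 higher and 3 lower of 8 at 4 h, 2 and 2 at 8 h, and 4 and 2 at 24 h.

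Markers of cell state moved in the same libraries. The summed level of the 6 preadipocyte markers (Pdgfra, Pdgfrb, Cd34, Ly6a, Ebf2 and Dlk1) was between 1262 and 1317 CPM with vehicle and between 335 and 349.9 CPM with FGF6 at 24 h. At that time 4 of the 5 tested markers were lower (37.9% of all genes), Cd34 was higher, and Dlk1 was at 0 throughout. Mature adipocyte markers summed to between 156 and 178 CPM with vehicle and between 64.0 and 70.8 CPM with FGF6, almost all of it Fabp4. Lep was at 0, 4 of the 5 tested markers were lower, and Ucp1, the heat-producing uncoupling protein, went from 0 to 0.739 CPM. Skeletal muscle markers summed to between 6.66 and 8.66 CPM with vehicle and between 1.25 and 1.76 CPM with FGF6, with all 3 tested markers lower and Myh4 at 0. The endothelial sum was between 0.965 and 1.30 CPM with vehicle and between 3.71 and 5.65 CPM with FGF6, with Cdh5 higher and Kdr not passing the test. The leukocyte sum was between 6.48 and 7.95 CPM with vehicle and between 3.36 and 3.97 CPM with FGF6. Almost all of it was Cd68 and Csf1r, both of them lower. At 4 h the leukocyte sum was between 14.2 and 15.2 CPM with vehicle and between 17.6 and 18.5 CPM with FGF6. The part of these shifts in the members' changes was not tested.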

How the data were processed

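RNA-seq counts from 18 libraries (3 for each treatment and time) were used, and groups came from the sample titles. The authors aligned reads to GRCm38 with STAR, counted them per GENCODE gene with Subread featureCounts, and deposited raw counts. Tool versions, annotation release, strand setting and the treatment of reads mapping to several places are not given in the sources used here.

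From these counts, genes were kept by filterByExpr of edgeR 4.0.16 (R 4.3.3). TMM factors (0.951 to 1.05) scaled the libraries, and the quasi-likelihood test was fitted to all 6 groups without covariates. Benjamini-Hochberg adjustment covered 15071 genes, and an FDR under 0.05 was called. The SE is that implied by the F statistic, and CPM are TMM-scaled. Library totals were 24327816 to 33471980 counts, and the exact counting intervals cover counting error only. On simulated counts for FGF6 against vehicle at 24 h over 14680 genes, 73.7% of 1.5-fold and 84% of 2-fold changes were recovered, with 8 false calls. Only 99 tested genes changed 1.5-fold there and 100 changed 2-fold, a far smaller share than was called in the data. These rates therefore check the code and do not carry over to the data. An exact permutation test of 3 against 3 libraries cannot go below p = 0.1, so it was not used.

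Symbols and exon lengths came from GENCODE M21, promoters from RefSeq GRCm38.p6. Members with values in every library are those with an FDR under 0.05, at least a 2-fold change and a mean of at least 1 CPM at any time, plus the highest member of each family, and genes of the lists were named by the same limits at 24 h, with a few others named after their values were seen. The members and lists were chosen with earlier results of these data known. Alternatives were limma-voom 3.58.1, DESeq2 1.42.0, other scalings, filters and thresholds, the replicate block, only the libraries compared, and leaving out each library.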

Additional observations from a re-analysis of the deposited data

Results flagged for a closer look

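By the edgeR test of the difference at an FDR under 0.05, the FGF6 effect changed with time for 21 of 24 members. These 24 are the members whose values are given by library, named for their effect in the same libraries or as the highest of a family. The count is therefore a description. Such a change was common among all tested genes, at 53.5% for 24 h against 4 h and 45.1% for 24 h against 8 h. A member was counted where any 1 comparison of times passed, while each of these shares is for 1 comparison alone. The share of all genes that passed in any comparison is at least as high and was not computed. For each member 1 comparison of times is listed. Values are the log2 effect at 24 h minus that at 4 h unless stated. Among the falling transferases the difference was -2.18 for Gstm1, -2.59 for Gstm2, -3.12 for Gstm7 and -2.93 for Gstt1. For the omega class it was 1.19 for Gsto1 and 1.88 for Gsto2. The membrane-bound enzymes gave -1.46 for Mgst1 and -1.87 for Mgst3, while Mgst2 gave 1.21 from 8 to 24 h, an opposite sign. Other detoxification enzymes gave -2.72 for Ephx1, -3.55 for Ces1a, -2.25 for Sult6b1 and 1.95 for Ugt1a7c. The fitted differences of Fmo1 (-6.48) and Ces1g (-7.16) rest on 1 count over the FGF6 libraries at 24 h and depend on the prior count. The peroxidases gave 0.22 for Gpx1, -2.22 for Gpx3, -0.92 for Gpx7 and 0.76 for Prdx6, and from 8 to 24 h 0.22 for Prdx1 and -0.32 for Prdx5. No group of libraries held 4 or more, so single libraries were not tested for distance from their group.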

How the results depend on the processing

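Requiring at least 10 counts in every library left 29 members, with 1 at least 2-fold lower at 4 h (3.87% of all genes under that filter), 9 at 8 h (7.35%) and 12 at 24 h (11.5%), and 18 lower at 24 h, since low members were no longer tested. With library totals alone, 1 member was at least 2-fold higher at 4 h, and Prdx3 reversed at 4 h (-0.090, edgeR adjusted p = 0.0362), beside a shift of the median of all genes from -0.05 to -0.15. Same-numbered libraries correlated between -0.03 and 0.05 in their deviations from group means, and differently numbered ones between -0.04 and 0.05. No pairing by number was seen, but deviations over all kept genes include counting noise, so values near 0 cannot exclude it. The fit with the replicate block gave 28 lower and 9 higher members at 24 h, 26 and 10 at 8 h and 21 and 8 at 4 h. It changed 1 call of an FGF6 effect, Gstt2 at 8 h (-0.60). Leaving out 1 library gave 19 to 23 lower and 7 to 8 higher members at 4 h, 25 to 26 and 10 to 11 at 8 h, and 26 to 28 and 8 to 10 at 24 h. Over the 9 other settings and all members, 1090 values kept their direction and side of the threshold, 8 lost the call, 28 gained it and 1 reversed. One setting, an FDR of 0.25, used the main fit and could only gain calls. Over the fits without 1 library 2326 kept it, 31 lost it and 19 gained it. For each time only 6 of the 18 fits left out a library of that time. The others kept all libraries compared, so the large count that held is partly built in. Values at or under 3 counts limit Fmo1, Fmo2, Fmo4, Ces1f, Ces1g and Ugt1a6b to ratios with wide intervals.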
